A study of Mus musculus with 4 samples.

Results

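The 10 genes described here are the ligand gene Fgf4, the receptor genes Fgfr1 and Fgfr2, and 7 genes that respond to FGF and ERK signalling in many cells, Spry2, Spry4, Spred1, Dusp6, Etv4, Etv5 and Egr1. They were taken by gene symbol from the authors' deposited table, where each symbol had 1 Ensembl gene ID, so they make up 10 of 46603 gene IDs. Polyadenylated RNA was sequenced from mouse embryonic stem cells that lack both alleles of Gsk3a and Gsk3b (Gsk3a-/-;Gsk3b-/-, 2 samples) and from wild-type cells (Gsk3a+/+;Gsk3b+/+, 2 samples). All 4 samples were grown in serum with leukaemia inhibitory factor, over a feeder layer of irradiated embryonic fibroblasts, and all carry embryonic day 16 as their age label, although the design text writes another value. The design text calls the samples of a genotype biological replicates, and the sources used here do not say how many clones or lines they came from. The title of the series names the phosphoproteome of glycogen synthase kinase 3 and alternative splicing as the subject of the study.

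The data are a comparison of a group B with a group A. No header or label says which genotype is which group, so results are for B over A, as a log2 ratio (the log2 fold change, from the mean of B over the mean of A), with no genotype assigned to either. The group means could be split into the whole reads of 2 libraries each, called B1, B2, A1 and A2 here. The numbers 1 and 2 do not stand for the labels' replicates. Library totals lay between 112655210 and 146326307 reads. A normalized count is a library's read count for a gene divided by that library's size factor. Of the targeted genes, Gsk3a had 1697 and 1347 normalized counts in B1 and B2, against 6353 and 7104 in A1 and A2. Gsk3b had 5051 and 5002 normalized counts in B1 and B2, against 5438 and 6285 in A1 and A2. The extent of either deletion is not given in the sources used here, and gene counts can include reads from parts that were kept. Of 11 pluripotency markers, none was at 0 in any library. The same held for the feeder fibroblast and macrophage markers described below, so this does not test the labelled cell type. Summed normalized counts of the 11 pluripotency markers were 842192 and 846721 in B1 and B2, and 904174 and 965970 in A1 and A2.

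FGF4 is a secreted growth factor that embryonic stem cells make themselves. It binds FGF receptor tyrosine kinases, mainly FGFR1 in these cells and FGFR2 in primitive endoderm, and the signal runs through adaptor proteins and RAS to the kinases RAF, MEK and ERK. In mouse embryonic stem cells this pathway is known for priming cells to leave the naive state and for driving the choice of primitive endoderm. ERK activity raises the expression of its own inhibitors, among them Sprouty and Spred proteins and the phosphatase DUSP6, and of transcription factors such as ETV4, ETV5 and EGR1, so their mRNAs are often read as reporters of the pathway.

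Fgf4 itself is a textbook target of SOX2 and OCT4, which bind next to each other at an enhancer in the 3′ untranslated region of the gene. The reference bases of the pair were found at chr7:144864391-144864420 (mm10, plus strand, GENCODE M21), in the 3′ untranslated region, 1453 bases after the stop codon. They are shown because Fgf4 is the gene on which the results turn. Capitals mark the SOX letters CTTTGTT and the POU letters ATGCTAA, with 3 bases of any kind between them.
Fgf4 SOX and POU pair: actCTTTGTTtggATGCTAAtgggatactt
Searched in this order on both strands, the pair occurred in the last 3030 bases of 1 of 9398 protein-coding transcripts, or 0.0106%. All of these transcripts were at least that long. The 1 transcript was Fgf4, whose own bases give the letters and spacing searched. Its match was therefore fixed in advance, and the count is no measure of specificity. On either strand, the SOX letters alone occurred in 52.5% and the POU letters alone in 30.1% of these 3030-base windows. The 250 bases before the RefSeq start of Fgf4 (GRCm38.p6) lie at chr7:144861136-144861385 on the plus strand. Capitals mark the matches to the GC box GGGCGG, the CCAAT box, here on the minus strand, and the letters TATATA, whose 2 matches overlap.
Fgf4 upstream bases: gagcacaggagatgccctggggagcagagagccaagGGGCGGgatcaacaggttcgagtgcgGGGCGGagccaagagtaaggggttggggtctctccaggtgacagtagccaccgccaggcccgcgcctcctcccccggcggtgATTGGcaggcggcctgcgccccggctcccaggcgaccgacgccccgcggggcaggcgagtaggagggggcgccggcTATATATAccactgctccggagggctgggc
Over 32851 upstream windows of that length, read on both strands, 32.7% held GGGCGG, 33.8% CCAAT and 5.25% TATATA. Upstream windows were searched for 6 of the 10 genes, namely Fgf4, Fgfr2, Spry2, Spred1, Dusp6 and Etv5. Those of Fgfr1, Spry4, Etv4 and Egr1 were not searched, so nothing is said of their letters. Spry4, lower in group B by the authors' test described below, is among them. The matches in the 6 genes therefore do not describe the 10 genes as a set. No window of the 6 genes held the ETS letters CCGGAA, present in 12.0% of all windows. None of these windows held the TCF/LEF letters CTTTGAT, present in 3.21%. Of the 6, Fgf4 alone held TATATA. These matches describe letters in the reference and say nothing of binding in the cells.

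Of the 10 genes, Fgf4 and Spry4 fell in group B by the authors' test, none rose, and the other 8 did not pass it. An adjusted p under 0.05 was the threshold. Over the whole of the authors' deposited table the share called was 3.46% of 30237 genes, with 1.54% higher and 1.92% lower in group B. Among genes with a mean normalized count of at least 1000, which all 10 genes reached, the authors' deposited table called 5.04%. The authors' unadjusted p was under 0.05 for 3 of the 10, with Fgfr2 as the third and the only higher one. The share of all genes under 0.05 by that p was not counted, so this count has no background here. The 10 genes had a median log2 ratio of -0.16 in the authors' deposited table, where the median of all genes tested was 0.0054. The recovered libraries were also tested with limma on log2(normalized count + 1), which gives each value an error. By limma's adjusted p, 0 of the 10 genes passed, against 2.01% of 20465 genes whose mean was at least 10. Without adjustment limma's p was under 0.05 for 4 of the 10 (Fgf4, Fgfr2, Spry4 and Etv5), against 20.7% of all genes, and limma voom also called 0 of the 10. The 2 B libraries lay outside the range of the 2 A libraries for 6 of the 10 genes, 1 above and 5 below. The background for this is 52.5% of genes in either direction and 26.0% for B below A, so the count in either direction is near the background. The 10 genes had 507 to 55474 reads in a library, so that counting error is small and the spread between libraries limits the precision. P-values here rest on the spread between the samples deposited, and limma also draws on the spread of other genes through its trend.

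**Figure D1:**
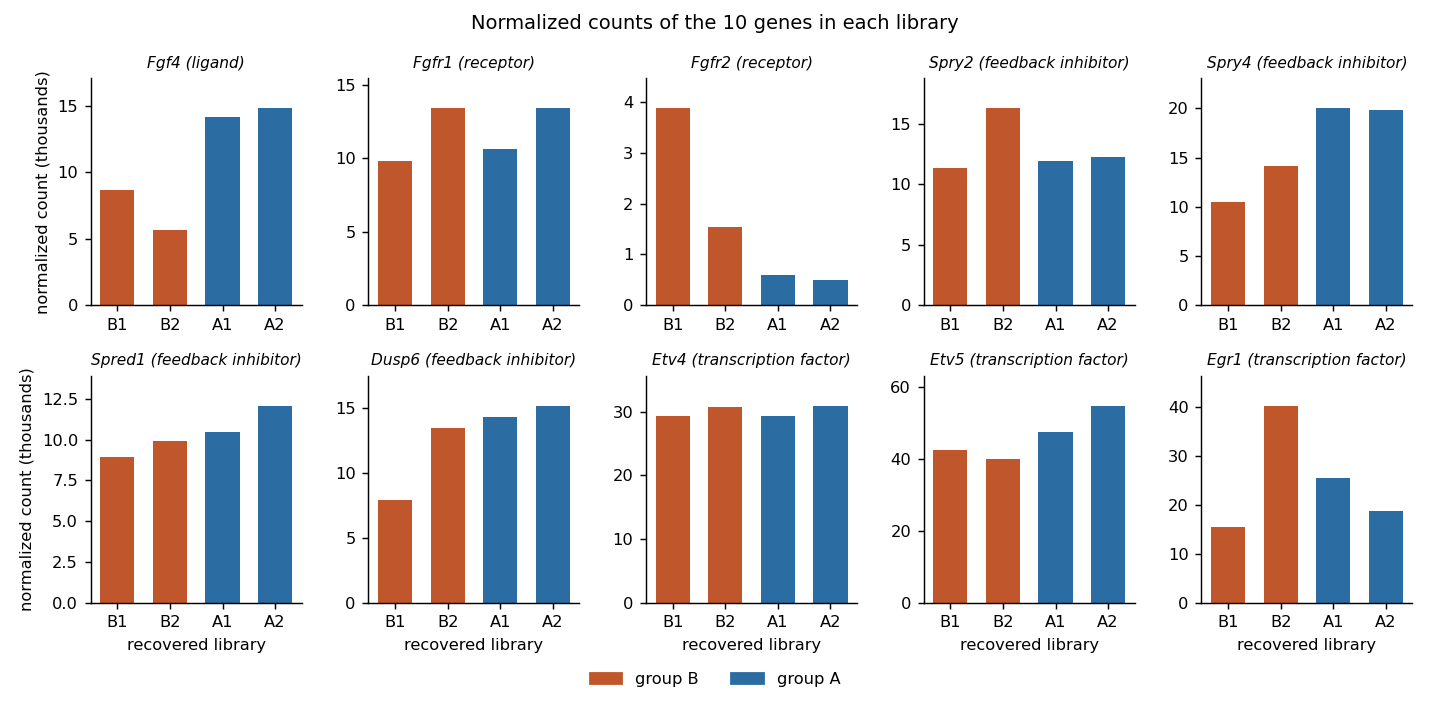
Normalized counts of the 10 genes in the recovered libraries B1, B2, A1 and A2, with 1 bar per library and, for each gene, a vertical axis of its own in units of 1000 that starts at 0. Both B bars stand below both A bars for Fgf4, Spry4, Spred1, Dusp6 and Etv5, both stand above for Fgfr2, and the groups overlap for Fgfr1, Spry2, Etv4 and Egr1.

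Fgf4 (ENSMUSG00000050917, chromosome 7, 144847367 to 144865243, plus strand, mm10 with GENCODE M21 positions) encodes the ligand. Its normalized counts were 8686 in B1 and 5655 in B2, against 14118 in A1 and 14819 in A2. Both B libraries lay below both A libraries, and the B libraries differed from each other more than the A libraries did. The means were 7171 ± 2144 in group B and 14469 ± 495 in group A (SD, n = 2 each). Fgf4 thus fell to 0.496 of its group A level (log2 ratio -1.01, adjusted p = 0.000347) in the authors' deposited table. Limma put the log2 ratio at -1.05 (SE 0.20, 95% interval -1.55 to -0.54, adjusted p = 0.0649), so it missed limma's threshold. With a library left out, limma gave -1.35 without B1 (adjusted p = 0.0103), -0.74 without B2 (0.0206), -1.08 without A1 (0.285) and -1.01 without A2 (0.388). Without A1 or without A2, the spread in limma rests on B1 and B2 alone. Of the 11 pluripotency markers, 6 also had B below A in all libraries, against 26.0% of all genes. The authors' test called 1 of the 11 lower, Utf1, a chromatin-associated factor of pluripotent cells, against 1.92% of all genes. The part of these markers in the Fgf4 values was not tested, and in bulk RNA fewer cells of a type and less RNA per cell cannot be told apart.

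The mRNAs of the 3 factors listed as regulators of Fgf4 were below the level of group A, and none passed either test after adjustment. Pou5f1, which encodes OCT4, had 105468 and 93404 normalized counts in B1 and B2, against 115577 and 125786 in A1 and A2, and a log2 ratio of -0.28 (adjusted p = 0.79) in the authors' deposited table. Nanog, a homeobox factor of the pluripotency network, had 66718 and 55379 in B1 and B2, against 77882 and 75891 in A1 and A2. It had a log2 ratio of -0.33 (adjusted p = 0.602) in the authors' deposited table. Sox2 had 23404 and 24346 normalized counts in B1 and B2, against 29667 and 35075 in A1 and A2. For Sox2 the log2 ratio was -0.44 (adjusted p = 0.224) in the authors' deposited table. All 3 had both B libraries below both A libraries, as had 26.0% of all genes. The unadjusted p was under 0.05 for 1 of the 3 by the authors' test, for which no share of all genes was counted. By limma it was under 0.05 for 3 of the 3, against 20.7% of all genes.

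On chromosome 7, Fgf4 lies between the ligand genes Fgf3 and Fgf15, of which Fgf15 fell and Fgf3 did not pass the test. Distances here run between the starts of GENCODE gene models, and that of Fgf4 lies upstream of the RefSeq start used above. Fgf15, an endocrine FGF in the mouse intestine, starts 49.2 kb after that model start and 35.1 kb after the RefSeq start. It had 83.4 and 81.6 normalized counts in B1 and B2, against 324 and 393 in A1 and A2. Its log2 ratio was -2.12 (adjusted p = 6.56e-09) in the authors' deposited table, and -2.10 (SE 0.25, adjusted p = 0.0309) with limma. Fgf3 starts 9.28 kb before the model start, or 23.3 kb before the RefSeq start, and had 856 normalized counts in B1 and 297 in B2, against 295 in A1 and 345 in A2. The groups overlapped for Fgf3, with B1 alone high, and its adjusted p was 1 in the authors' deposited table. Of the 8 genes listed around Fgf4, Fgf15 alone passed the authors' test, against 3.46% of all genes in either direction and 1.92% lower. Fadd, an adaptor of death receptors that starts 265 kb before the Fgf4 model, had a log2 ratio of 0.69 (adjusted p = 0.0558) in the authors' deposited table. Ccnd1, which encodes cyclin D1 and starts 92.6 kb after the Fgf4 model start on the opposite strand, had a log2 ratio of -0.28 (adjusted p = 0.723) there, per the authors' deposited table.

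**Figure D2:**
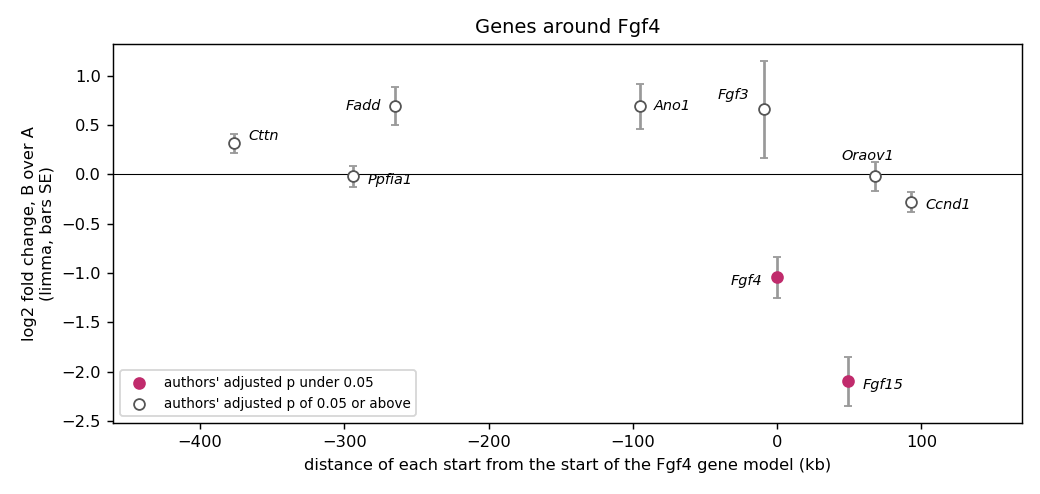
Log2 ratio of group B over group A from limma, with bars of 1 SE, for Fgf4 and 8 genes around it, against the distance in kb of each gene's start, read on its own strand, from the start of the Fgf4 gene model. Filled points passed the authors' test, which are Fgf4 at -1.05 and Fgf15 at -2.10, and the other points lie between -0.28 and 0.70.

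The genes with the profile most like that of Fgf4 over the 4 libraries were Ifitm3, Bbof1, Ccdc85a, Fam111a and Rsg1. Likeness was the Euclidean distance between deviations of log2(normalized count + 1) from each gene's mean, over 13427 candidate genes. Ifitm3, a membrane protein that restricts virus entry, was the nearest at 0.0291. It had 6930 and 4555 normalized counts in B1 and B2, against 11239 and 11607 in A1 and A2. The other 4 lay at 0.0957 to 0.122, and with Pearson's correlation as the measure Ifitm3 alone of the 5 was still among the first 5. With 4 libraries and 13427 candidates, such a match is a description of these libraries.

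Fgfr1 (ENSMUSG00000031565, chromosome 8, 25513654 to 25575718, plus strand) encodes the main FGF receptor of embryonic stem cells. Its normalized counts were 9801 in B1 and 13392 in B2, against 10644 in A1 and 13409 in A2. The groups overlapped, with a lower and a higher library in each. The log2 ratio was -0.05 (adjusted p = 1) in the authors' deposited table. Limma gave -0.06 (SE 0.19, 95% interval -0.52 to 0.40, adjusted p = 0.898), an interval that includes 0. An antisense gene, Gm16159, with a mean normalized count of 26.8, overlaps the exons of Fgfr1 by 164 bases.

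Fgfr2 (ENSMUSG00000030849, chromosome 7, 130162451 to 133123350, minus strand) encodes the receptor that marks primitive endoderm in the mouse blastocyst, and had the highest fold change of the 10. Its normalized counts were 3884 in B1 and 1542 in B2, against 598 in A1 and 501 in A2. Both B libraries lay above both A libraries, and B1 was 2.52 times B2. The means were 2713 ± 1657 in group B and 550 ± 68.3 in group A (SD, n = 2 each), a ratio of 4.94. This difference did not pass the authors' test, with a log2 ratio of 2.30 (p = 0.0348, adjusted p = 0.387) in the authors' deposited table. Limma put the log2 ratio at 2.16 (SE 0.42, 95% interval 1.11 to 3.20, adjusted p = 0.0653). Without B1 it was 1.49 (limma adjusted p = 0.025) and without B2 2.82 (limma adjusted p = 0.00431), both past the threshold, while without A1 or A2 it was 2.29 and 2.03 and not past it. The exons of Fgfr2 share 314 bases on the same strand with Ctbp2, a corepressor gene with 32608 and 31826 normalized counts in B1 and B2, and 33217 and 34188 in A1 and A2. How reads in the shared bases were counted is not given in the sources used here.

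Extraembryonic endoderm markers had, in their summed level, the same order of libraries as Fgfr2, though single markers differed. The 19 markers summed to 462579 normalized counts in B1 and 244131 in B2, against 151735 in A1 and 114525 in A2. Matrix genes weigh most in these sums. Their group B means were 86196 for Col4a1, 83838 for Sparc, 64746 for Lama1, 42410 for Col4a2 and 41748 for Lamb1, against 7691 for Gata4. Of the 18 markers with a mean of at least 10, 12 were higher in B1 and B2 than in A1 and A2, and 1 was lower, where the background is 26.4% of genes above. The authors' test called 1 of the 19 higher, Foxa1, and none lower, against 1.54% of all genes higher and 1.92% lower. Limma called 5 of the markers higher and none lower, against 2.01% of genes in either direction. The median log2 ratio of the 19 was 1.62 in the authors' deposited table. There Hnf4a, Cubn, Ttr and Apoa1 went the other way, with log2 ratios of -0.15, -0.60, -2.46 and -0.12. Gata6, a factor that drives primitive endoderm, had 8215 and 3503 normalized counts in B1 and B2, against 744 and 535 in A1 and A2. No marker but Afp was at 0 in any library, and Afp was at 0 in B2 and A2. The part of these markers in the Fgfr2 values was not tested.

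Of the 12 FGF receptors and co-receptors that could be tested, 2 rose in group B and none fell, against 1.54% of all genes higher and 1.92% lower, with a median log2 ratio of 0.06 in the authors' deposited table. Flrt3, a membrane protein that binds FGF receptors, had 6690 and 4338 normalized counts in B1 and B2, against 1485 and 1304 in A1 and A2. It had a log2 ratio of 1.98 (adjusted p = 0.00498) in the authors' deposited table, and 1.95 (SE 0.22, adjusted p = 0.0309) with limma. Sdc4, a heparan sulphate proteoglycan, had 27687 and 32191 normalized counts in B1 and B2, against 16542 and 18358 in A1 and A2. Its log2 ratio was 0.78 (adjusted p = 0.00149) in the authors' deposited table, and 0.78 (SE 0.11, adjusted p = 0.0406) with limma. Klb, the co-receptor of endocrine FGFs, followed the order of Fgfr2, with 4481 and 1179 normalized counts in B1 and B2 against 426 and 188 in A1 and A2. It did not pass, with a log2 ratio of 3.21 (adjusted p = 0.539) in the authors' deposited table, and is named after its values were seen.

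Of the 4 feedback inhibitors, Spry4 passed the authors' test and Spry2, Spred1 and Dusp6 did not. Spry4 (ENSMUSG00000024427, chromosome 18, 38586247 to 38601415, minus strand) encodes a Sprouty protein, an inhibitor of receptor tyrosine kinase signalling. Its normalized counts were 10533 in B1 and 14128 in B2, against 20044 in A1 and 19867 in A2. Both B libraries lay below both A libraries, which were nearly equal. The means were 12331 ± 2542 in group B and 19955 ± 125 in group A (SD, n = 2 each). Spry4 fell to 0.618 of its group A level (log2 ratio -0.69, adjusted p = 0.00398) in the authors' deposited table. Limma put the log2 ratio at -0.71 (SE 0.15, 95% interval -1.08 to -0.34, adjusted p = 0.0757). Without B1 limma gave -0.50 (adjusted p = 0.0479), without B2 -0.92 (0.00915), without A1 -0.70 (0.327) and without A2 -0.72 (0.411).

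Spry2 (ENSMUSG00000022114, chromosome 14, 105891947 to 105896819, minus strand), another Sprouty gene, had 11385 normalized counts in B1 and 16325 in B2, against 11975 in A1 and 12287 in A2. The B libraries lay on either side of the A libraries. The log2 ratio was 0.19 (adjusted p = 1) in the authors' deposited table and 0.17 (SE 0.18, 95% interval -0.27 to 0.60, adjusted p = 0.647) with limma. A difference between Spry2 and Spry4 in their response was not tested. Their limma intervals do not overlap.

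Spred1 (ENSMUSG00000027351, chromosome 2, 117121374 to 117182279, plus strand) encodes an inhibitor that recruits neurofibromin to RAS. It had 8933 normalized counts in B1 and 9902 in B2, against 10435 in A1 and 12085 in A2. Both B libraries lay below both A libraries by a small margin. The log2 ratio was -0.26 (adjusted p = 0.816) in the authors' deposited table and -0.26 (SE 0.12, 95% interval -0.55 to 0.04, adjusted p = 0.296) with limma.

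Dusp6 (ENSMUSG00000019960, chromosome 10, 99263231 to 99267489, plus strand) encodes a cytoplasmic phosphatase of ERK. Its normalized counts were 7929 in B1 and 13496 in B2, against 14341 in A1 and 15219 in A2. B1 alone lay far below the other 3 libraries. The log2 ratio was -0.46 (adjusted p = 0.72) in the authors' deposited table and -0.51 (SE 0.24, 95% interval -1.11 to 0.09, adjusted p = 0.305) with limma. Without B2 limma gave -0.90 (adjusted p = 0.0126), past the threshold, and without B1 -0.13 (adjusted p = 0.506).

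**Figure D3:**
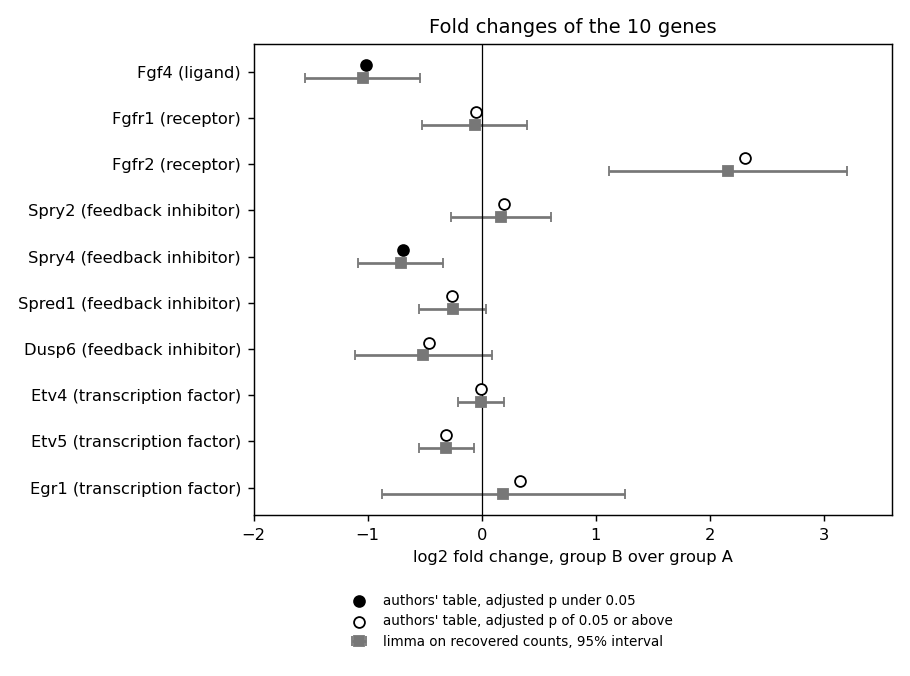
Log2 ratio of group B over group A for the 10 genes, from the authors' table (circles, filled where the adjusted p was under 0.05) and from limma on the recovered libraries (squares, with 95% intervals). Fgf4 at -1.01 and Spry4 at -0.69 are the filled circles, and Fgfr2 lies farthest to the right at 2.30.

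Among the ERK-responsive transcription factors, none of the 3 passed a test after adjustment. Etv4 (ENSMUSG00000017724, chromosome 11, 101769742 to 101785371, minus strand) encodes an ETS factor of the PEA3 group. It had 29374 normalized counts in B1 and 30671 in B2, against 29298 in A1 and 30930 in A2. All 4 libraries were close together and the groups overlapped. The log2 ratio was -0.0044 (adjusted p = 1) in the authors' deposited table. Limma gave -0.0042 (SE 0.08, 95% interval -0.21 to 0.20, adjusted p = 0.986), the narrowest interval among the 10 genes.

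Etv5 (ENSMUSG00000013089, chromosome 16, 22381309 to 22439719, minus strand), of the same ETS group, had 42360 normalized counts in B1 and 40075 in B2, against 47570 in A1 and 54851 in A2. Both B libraries lay below both A libraries. The log2 ratio was -0.31 (adjusted p = 0.647) in the authors' deposited table and -0.31 (SE 0.10, 95% interval -0.55 to -0.07, adjusted p = 0.155) with limma.

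Egr1 (ENSMUSG00000038418, chromosome 18, 34859823 to 34864984, plus strand) encodes a zinc finger factor of the immediate early response. It had 15549 normalized counts in B1 and 40375 in B2, against 25619 in A1 and 18843 in A2. B2 was the highest library and B1 the lowest, so that group B enclosed group A. The log2 ratio was 0.33 (adjusted p = 1) in the authors' deposited table and 0.19 (SE 0.43, 95% interval -0.88 to 1.26, adjusted p = 0.858) with limma. Leaving out a library turned its sign with limma, to -0.50 without B2 against 0.88 without B1, so no direction can be given for Egr1.

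Markers of feeder fibroblasts varied between libraries of the same group in the order of Egr1. The 18 markers summed to 41621 normalized counts in B1 and 212541 in B2, against 150503 in A1 and 72492 in A2. B2 was 5.11 times B1 for these markers and 2.60 times B1 for Egr1, and A1 was 2.08 times A2 for the markers and 1.36 times A2 for Egr1. Dusp6, Spry2, Fgfr1 and Spry4 were also higher in B2 than in B1, by 1.70, 1.43, 1.37 and 1.34 times. They did not follow the markers in group A, where A1 was 0.94 of A2 for Dusp6, 0.97 for Spry2, 0.79 for Fgfr1 and 1.01 for Spry4. None of the 18 markers separated the groups, where 52.5% of all genes did in either direction, and none was at 0 in a library. Macrophage markers summed to 3623 and 4346 normalized counts in B1 and B2 and to 3304 and 2915 in A1 and A2, with Cd68, the most abundant of the 11, lower in B. Of these markers 10 of 11 had B above A in all libraries, against 26.4% of all genes. The authors' test called 2 of them higher (Ptprc and Lyz2), against 1.54% of all genes. The median log2 ratio of the 11 was 1.80 in the authors' deposited table. The part of either cell type in the values of the 10 genes was not tested.

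**Figure D4:**
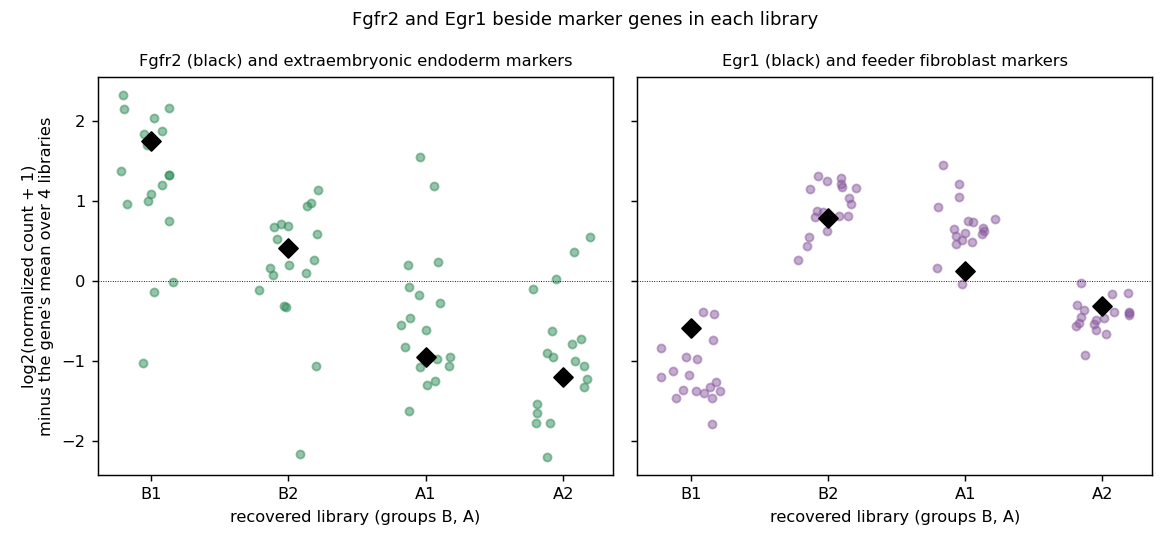
Log2(normalized count + 1) minus the gene's mean over the 4 libraries, by library, for Fgfr2 with extraembryonic endoderm markers (left) and for Egr1 with feeder fibroblast markers (right), where coloured points are single markers with a mean of at least 10 and black diamonds are Fgfr2 or Egr1. Fgfr2 and most endoderm markers are highest in B1, and Egr1 is highest in B2 and lowest in B1, where every feeder marker lies below its mean.

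Levels between the 10 genes were compared per kb of exon, as the mean normalized count per kb over the 4 libraries. Etv5 (11263 per kb, range 9767 to 13368) and Etv4 (9687, range 9439 to 9964) were the most abundant, and their ranges overlapped. Spry2 followed at 6226 per kb, and no library of it reached the lowest of Etv4. Egr1 (5597), Dusp6 (4070), Spry4 (3395) and Fgf4 (3386) came next, each with a range over libraries that overlapped its neighbour in the order. Spred1 (1524 per kb) and Fgfr1 (1196) overlapped as well. Fgfr2 was the least abundant at 158 per kb, and its highest library (376) lay below the lowest of Fgfr1 (993). The ligand thus lay above both receptors on this scale in every library, with 1770 to 4638 per kb. The scale divides by all annotated exon bases of a gene, 3195 for Fgf4, 9875 for Fgfr1 and 10328 for Fgfr2. Whether the order holds with another choice of length was not tested.

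The wider FGF ligand list held 22 genes, of which Fgf13 and Fgf16 on the X chromosome were listed at 0, as was every gene of that chromosome in the table. The list went by family name, with Fgf11, Fgf12, Fgf13 and Fgf14 in it, so not every gene in it need encode a receptor ligand. Of its 20 genes tested, 4 fell in group B and none rose, against 1.92% of all genes lower and 1.54% higher. The median log2 ratio of the 20 was -0.45 in the authors' deposited table, where all genes tested had 0.0054. Beside Fgf4 and Fgf15, the genes that fell were Fgf17 and Fgf1. Fgf17, a ligand of the FGF8 group, had 613 and 460 normalized counts in B1 and B2, against 1544 and 2020 in A1 and A2. It had a log2 ratio of -1.73 (adjusted p = 2.26e-05) in the authors' deposited table, and -1.73 (SE 0.22, adjusted p = 0.032) with limma. Fgf1, which can bind all FGF receptors, had 103 and 106 normalized counts in B1 and B2, against 325 and 433 in A1 and A2. Its log2 ratio was -1.86 (adjusted p = 8.03e-06) in the authors' deposited table, and -1.83 (SE 0.25, adjusted p = 0.0384) with limma. Limma called 3 of these ligands, without Fgf4. In the other lists Gpc3, Gpc4, Araf, Rps6ka3, Dusp9 and Elk1, all on the X chromosome, and Spry3 were listed at 0 as well.

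No gene listed for the steps from receptor to ERK passed the test. The authors' test called 0 of 12 adaptor and RAS genes and 0 of 11 genes of the RAF, MEK and ERK core. Without adjustment its p was under 0.05 for 1 gene of each list, for which no share of all genes was counted. Limma also called 0 of each list, with 3 and 2 genes under 0.05 unadjusted, near the 20.7% of all genes. The most abundant adaptor and RAS genes were Gab1, a docking protein, with a log2 ratio of -0.17, and Nras, a RAS gene, with -0.11, in the authors' deposited table. In the core list Rps6ka1, which encodes a kinase downstream of ERK, had a log2 ratio of 0.13 in the authors' deposited table. These 3 genes had an adjusted p of 1 there. The median log2 ratio was -0.0080 for adaptors and RAS and 0.07 for the core in the authors' deposited table.

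Of 18 feedback inhibitors tested, Spry4 alone fell and none rose, against the same 1.92% and 1.54% of all genes, with a median log2 ratio of 0.08 in the authors' deposited table. Of 28 ERK-responsive transcription factor and immediate early genes tested, 2 fell and none rose, against 1.92% of all genes lower and 1.54% higher, with a median log2 ratio of 0.35 in the authors' deposited table. Etv1, the third factor of the PEA3 group beside Etv4 and Etv5, had 986 and 1135 normalized counts in B1 and B2, against 2091 and 1932 in A1 and A2. It had a log2 ratio of -0.92 (adjusted p = 0.000294) in the authors' deposited table, and -0.93 (SE 0.15, adjusted p = 0.0501) with limma. Myc, which encodes a growth-promoting transcription factor, had 3245 and 3330 normalized counts in B1 and B2, against 5279 and 5441 in A1 and A2. Its log2 ratio was -0.71 (adjusted p = 0.00779) in the authors' deposited table, and -0.70 (SE 0.11, adjusted p = 0.0444) with limma. The positive median of the list rested on B2, since it was -0.04 without that library. Single genes of the list need not depend on B2 in this way. Of the 28, 10 were higher in B1 and B2 than in A1 and A2, and 5 were lower. The background is 26.4% of all genes above and 26.0% below. Limma's unadjusted p was under 0.05 for 11 of the 28, in either direction, against 20.7% of all genes. Fos, an immediate early gene named after its values were seen, had a log2 ratio of -0.40 in the authors' deposited table. It had 6141 and 10117 normalized counts in B1 and B2, against 14562 and 6838 in A1 and A2. The groups overlapped for Fos.

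**Figure D5:**
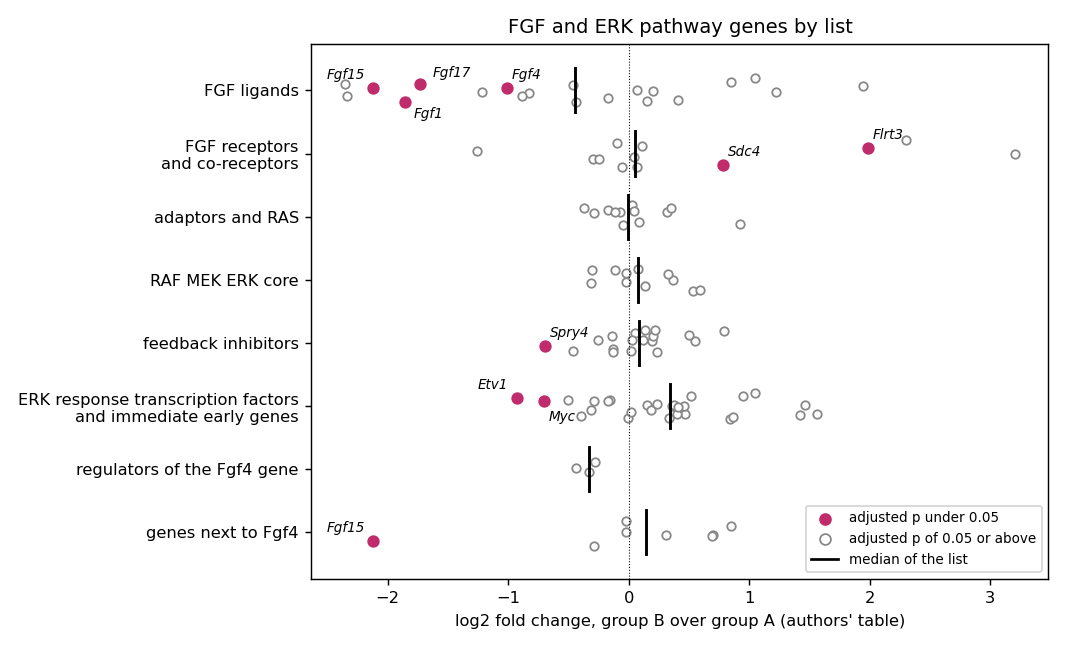
Log2 ratio of group B over group A from the authors' table for the tested genes of 8 FGF and ERK lists, with 1 point per gene, filled where the adjusted p was under 0.05, and a line at each list's median. The filled points are 4 ligands below 0, 2 receptor-associated genes above 0, Spry4, Etv1 and Myc below 0, and Fgf15 again among the genes around Fgf4.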

How the data were processed

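Per the submitters' processing notes, the authors used STAR, DESeq and the build mm10. Not given in the sources used here are the read counter, strand setting and annotation release. The authors' deposited table gives each group's mean normalized count (reads over size factors), the ratio of B to A, the log2 of that ratio, and p-values before and after adjustment. It has 46608 rows for 46603 gene IDs, of which 5 rows are repeats. The authors' p-values served as the main test. Their adjusted values differed from a Benjamini-Hochberg adjustment over 30237 genes by at most 4.54e-15.

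Group means were split into whole reads of 2 libraries each. For A all 28616 genes with a mean, and for B all 28353, gave whole numbers within 1e-06. That tolerance alone does not make the split unique, since 1700 genes of A (Etv4, Etv5, Spry4 and Egr1 among them) and 11 of B had another pair inside it. The nearest pair was used, and the distance of the next from whole numbers was 20.5 times as large or more. The size factors differed from median-of-ratios factors by at most 1.55e-15. Totals were 146326307 (B1), 112655210 (B2), 143182371 (A1) and 134463318 (A2) reads. For errors, log2(normalized count + 1) of the 20465 genes that averaged at least 10 was fitted with limma (version 3.58.1, R 4.3.3, trend on). These p-values are two-sided and adjusted by Benjamini-Hochberg. This scale understates changes of low genes. Other tests, filters, pseudocounts, scalings and left-out libraries were alternatives. The split and limma were tested on simulated data.

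Positions and exon lengths came from GENCODE M21 (46005 IDs matched, 598 not), and upstream bases from RefSeq GRCm38.p6. By rule, the genes named were the 10 genes, each list gene past the authors' threshold (or, with none, the 2 most abundant) and the 5 genes most like Fgf4. Other genes in the text, among them Sox2, Fgf3, Fadd, Ccnd1, Gata6, Cd68, Klb and Fos, fall outside this rule, and naming them was not planned. A gene that this rule names in the RAF, MEK and ERK core list is not reported here. The genes and lists were chosen with earlier results of these data known.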

Additional observations from a re-analysis of the deposited data

How the results depend on the processing

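The authors' test called 2 of the 10 genes. With the authors' p-values adjusted over genes with a mean of at least 10 it again called 2, and limma called 0 with its trend, with voom, with no filter or a mean of at least 50, with a pseudocount of 0.5 or 5, and with total count or upper quartile scaling. The same settings called 1047 genes by the authors' test, 1189 with the filter, 411 with limma, 357 with voom, 412 with no filter, 439 with a mean of at least 50, 397 and 495 with pseudocounts of 0.5 and 5, 448 with total count and 570 with upper quartile scaling. Leaving out a library, limma called 0 to 4 of the 10 genes and 0 to 1085 of all genes, with 0 of both without A1 or A2, because the spread then rests on B1 and B2, and the lone sample of the other group is assumed to vary like them. Signs turned for genes that passed no test. Fgfr1 came to 0.11 without A2 and 0.16 without B1, Etv4 to 0.0349 without A2 and 0.027 without B1, Spry2 to -0.0915 without B2, and Egr1 to -0.0321 without A2 and -0.50 without B2. List medians moved between -0.97 and -0.0776 for ligands, -0.18 and 0.48 for receptors, -0.05 and 0.02 for adaptors and RAS, -0.0169 and 0.20 for the core, 0.0032 and 0.13 for feedback inhibitors, -0.0415 and 0.57 for transcription factors, -0.41 and -0.20 for regulators of Fgf4, and -0.0889 and 0.22 for genes around it. The cause was not tested. Of the 5 genes most like Fgf4, Pearson's correlation gave 1. Limma called Etv1 with a mean of at least 50 (adjusted p = 0.0483), a pseudocount of 5 (0.0489), total count (0.0487) and upper quartile scaling (0.0426). It did not call Etv1 with the trend (0.0501), voom (0.0526), no filter (0.0504) or a pseudocount of 0.5 (0.0506). It called Fgf1, Fgf15, Fgf17, Flrt3, Sdc4 and Myc in every setting that kept 4 libraries. No paired analysis was possible because the recovered libraries carry no replicate number of the labels. With 2 libraries a group, the spread between libraries and not the depth sets the width of the limma intervals.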
